A study of Homo sapiens with 6 samples.

Results

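The 10 genes described here encode the core of the small RNA pathway: the 4 Argonaute proteins (AGO1, AGO2, AGO3, AGO4), the 3 GW182 proteins (TNRC6A, TNRC6B, TNRC6C), both processing nucleases (DROSHA, DICER1) and the precursor exporter (XPO5). They were picked by gene symbol from 30327 genes with a read count, with earlier results of these data known. All 10 were among the 15801 genes with enough reads to test. Poly(A) RNA of SK-BR-3, an established human breast cancer line that carries amplified ERBB2, was read in 6 libraries, of which 3 were from cells that received a non-targeting siRNA (si_NC) and 3 from cells that received a duplex directed at GRB2 mRNA (si_GRB2), each with Lipofectamine RNAiMAX and with no further genotype or treatment named. The sample titles call the second group a GRB2 overexpression group while the descriptions name si_GRB2, so the level of GRB2 itself was read first. Since the groups differed in the siRNA given as well as in GRB2, effects of the duplex and of low GRB2 cannot be told apart. Nothing in the labels says that replicates were separate cultures, and the p-values therefore measure only the spread between these libraries.

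In this pathway the Microprocessor, DROSHA with DGCR8, cuts a hairpin out of the primary transcript in the nucleus. XPO5 carries the hairpin to the cytoplasm with RAN, and DICER1 with TARBP2 cuts it to a duplex, 1 strand of which is loaded into an Argonaute protein. The loaded Argonaute finds target mRNAs mainly through the seed of the small RNA, and TNRC6 proteins bound to it recruit the PAN2-PAN3 and CCR4-NOT deadenylases, after which the mRNA is decapped and degraded. An siRNA duplex enters the pathway at the loading step, so every library here came from cells whose Argonautes were offered a transfected duplex.

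GRB2, the adaptor that links receptor tyrosine kinases to RAS signalling, stood at 124, 130 and 126 CPM (counts of a gene scaled to a common library size) under si_NC, and under si_GRB2 at 27.8, 28.1 and 29.6 CPM. It fell by 2.15 on the log2 scale (SE 0.04, adjusted p = 3.867e-15, edgeR quasi-likelihood test with Benjamini-Hochberg adjustment over all genes tested), and an exact two-sided permutation test of the 3 against 3 libraries gave p = 0.1, the smallest this design allows. The libraries held 24810378 to 28532480 counted reads. Correlations of log2 CPM were 0.992 to 0.996 within groups and 0.988 to 0.992 between them, and no pair of libraries within a group was a duplicate. Markers of the line were abundant in both groups. ERBB2 was higher in si_GRB2 (log2 fold change 0.24, adjusted p = 1.142e-06), while KRT8 (-0.41), KRT18 (-0.55), KRT19 (-0.20), EPCAM (-0.55) and GRB7 (-0.23) were lower, and the part of these changes in the values below was not tested. Of the markers of other cells, PTPRC, PECAM1, DCN and CD3E had at most 14 reads in all, CD68 and VWF stayed below 1.75 CPM, and COL1A1 lay between 3.71 and 5.31 CPM. In such bulk libraries fewer cells of a kind and less RNA per cell cannot be told apart.

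The siRNA sequence that the study's methods give for GRB2 was found once in the GRB2 transcript, in exon 5 of 6, within the coding sequence (bases 393 to 411), at chr17:75321716-75321734 of GRCh38 on the minus strand. No other gene carried the whole 19-base site in its principal transcript. The site and the strand complementary to it are shown because a duplex of this kind is what the genes described here handle. The sources name more than 1 siRNA against GRB2, and the labels do not say which was given to these cells, so every statement on this guide and its seed holds only if this duplex was the one used. Capitals mark bases 2 to 8 of the guide, its seed, and the bases of the site opposite them.
GRB2 site, sense DNA: ggtggattatcACAGATCt
Guide strand against GRB2, RNA: aGAUCUGUgauaauccacc

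Matches to these 7 seed letters (ACAGATC in the sense strand), and to the seed letters of the control guide (TGTCACG), were searched in the 3′ UTRs of principal transcripts. AGO1 held 2 matches to the GRB2 guide, at bases 5451 and 5954 of a 3′ UTR of 10925 bases (chr1:35925058-35925064 and chr1:35925561-35925567), and AGO3 held 1 match to the control guide near the end of its 3′ UTR, at chr1:36072312-36072318. AGO2 held 1 match to the GRB2 guide, whose position and letters are not given here, and the other 7 genes held none to either guide. The stretches are shown with 11 reference bases on each side of the match, which is in capitals.
AGO1, GRB2 guide, first match: atcttaaggtgACAGATCactggtagaca
AGO1, GRB2 guide, later match: ggcatataccaACAGATCagtatgtgcaa
AGO3, control guide: ctgagccaaacTGTCACGaaatgttctgt

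Among the 10 genes, 4 rose (TNRC6B, TNRC6C, DROSHA, DICER1), 2 fell (AGO2, AGO4) and 4 did not pass the test (AGO1, AGO3, TNRC6A, XPO5) at an adjusted p under 0.05. The background is high in this comparison: 30.6% of all genes tested passed, 15.2% as higher and 15.5% as lower, and 36.8% passed among genes within the CPM range of the 10. With 10 genes a count of 6 is a small sample against that share, and no test was made over the list. Their median log2 fold change was 0.04, beside 0.00 over all genes tested. The libraries of both groups did not overlap for 7 of the 10, against 42.3% of all genes tested. Under stricter limits (the study's fold limit of 1.5, here with an adjusted p under 0.01), which 2.52% of all genes passed, AGO4 alone passed. With limma on the FPKM values in place of counts, 0 of the 10 passed at log2(FPKM + 1) and 1 at log2(FPKM + 0.1).

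**Figure D1:**
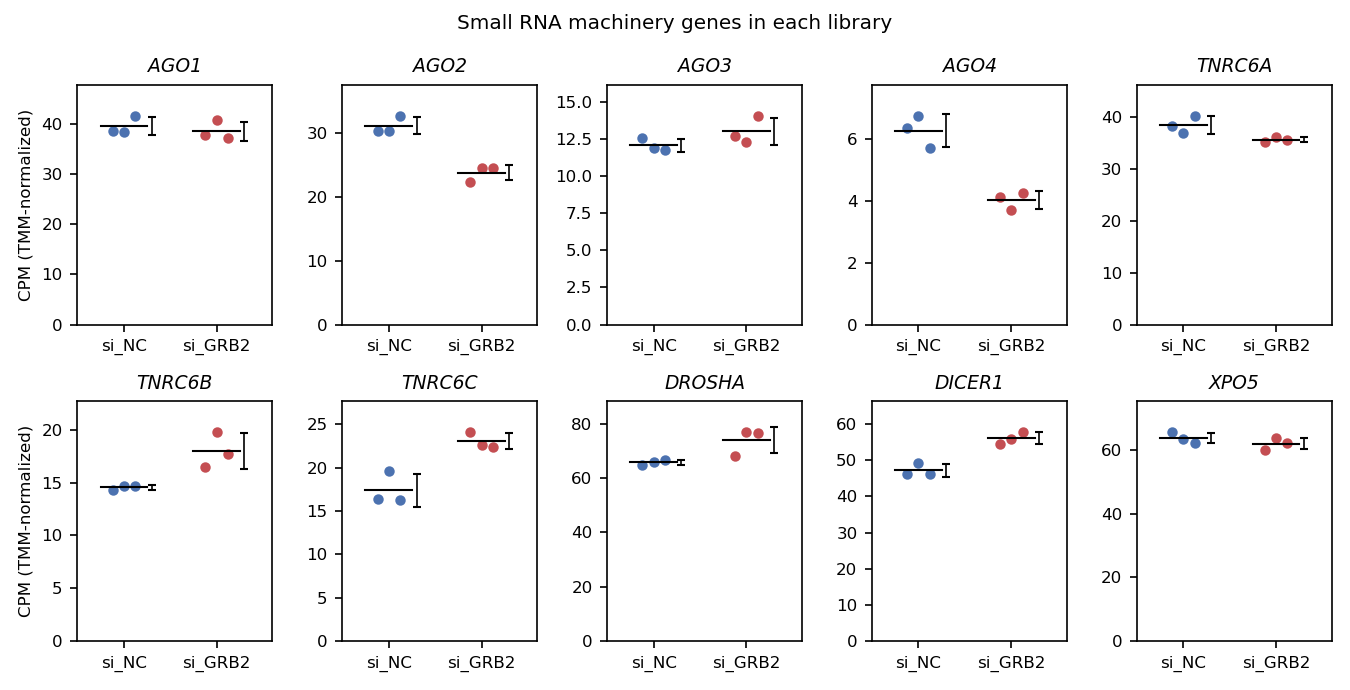
CPM (TMM-normalized, axes from 0) of each gene in the 3 si_NC libraries (blue) and the 3 si_GRB2 libraries (red), with the mean as a line and ± 1 SD beside it. AGO2 and AGO4 were lower in every si_GRB2 library, TNRC6B, TNRC6C, DROSHA and DICER1 higher, and the libraries of both groups overlapped for AGO1, AGO3 and XPO5.

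Of the 4 Argonaute genes 2 fell and 2 did not pass the test. AGO2, the Argonaute that cleaves fully paired targets and so carries out siRNA knockdown, had 30.4, 30.4 and 32.7 CPM in si_NC and 22.4, 24.5 and 24.6 CPM in si_GRB2. All 3 si_GRB2 libraries lay below all si_NC libraries, and AGO2 fell by 0.39 on the log2 scale (SE 0.05, edgeR adjusted p = 4.67e-05). AGO4, a family member without slicing activity, had the lowest read count of the 10, at 6.35, 6.75 and 5.70 CPM in si_NC and 4.13, 3.71 and 4.27 CPM in si_GRB2. Again no library overlapped, and AGO4 fell by 0.63 (SE 0.13, 95% interval -0.90 to -0.37, adjusted p = 0.00101). That size sits at the fold limit: without replicate 2 of si_NC it was -0.58, and without replicate 2 of si_GRB2 -0.58, both just under 1.5-fold.

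AGO1, which like the other non-slicing Argonautes represses through TNRC6, stood at 38.7, 38.5 and 41.7 CPM in si_NC and 37.8, 40.8 and 37.2 CPM in si_GRB2. The groups overlapped, and the 95% interval of its log2 fold change ran from -0.14 to 0.07 (adjusted p = 0.637). It is the gene with both printed matches to the GRB2 guide. AGO3 stood at 12.6, 11.9 and 11.7 CPM in si_NC and 12.7, 12.3 and 14.1 CPM in si_GRB2, with an interval of -0.05 to 0.27 (adjusted p = 0.322). AGO4, AGO1 and AGO3 lie in that order on the plus strand of chromosome 1 (chr1:35808016-35857890, chr1:35869808-35930532 and chr1:35930718-36072500), with gaps of 11917 and 185 bases. AGO4 thus fell while the interval of its nearest neighbour, AGO1, included 0. The difference between these neighbours was not tested.

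The TNRC6 genes, whose products carry glycine-tryptophan repeats that bind Argonaute and deadenylases, differed among themselves. TNRC6C had 16.4, 19.6 and 16.2 CPM in si_NC and 24.1, 22.7 and 22.4 CPM in si_GRB2, and rose by 0.41 on the log2 scale (SE 0.07, edgeR adjusted p = 0.000316). TNRC6B had 14.3, 14.7 and 14.7 CPM in si_NC and 16.5, 19.8 and 17.7 CPM in si_GRB2, and rose by 0.31 (SE 0.07, adjusted p = 0.0036). For both, each si_GRB2 library was above each si_NC library. TNRC6A, the most abundant of the family, stood at 38.2, 36.9 and 40.2 CPM in si_NC and 35.1, 36.2 and 35.6 CPM in si_GRB2. Its libraries did not overlap either, yet the log2 fold change of -0.11 (95% interval -0.21 to -0.01) missed the threshold after adjustment (adjusted p = 0.0795), which it passed without replicate 2 of si_NC (adjusted p = 0.046).

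Both nucleases rose. DICER1, which cuts precursor hairpins to duplexes, had 46.1, 49.3 and 46.2 CPM in si_NC and 54.5, 55.9 and 57.7 CPM in si_GRB2, a log2 fold change of 0.25 (SE 0.04, edgeR adjusted p = 0.000308). DROSHA, the nuclear nuclease, had 64.8, 65.8 and 66.5 CPM in si_NC and 68.2, 76.8 and 76.6 CPM in si_GRB2, a log2 fold change of 0.17 (SE 0.05, adjusted p = 0.00847). Its replicate 1 of si_GRB2 was close to the si_NC libraries, and the call was lost without replicate 2 of si_GRB2 (adjusted p = 0.0595) or without replicate 3 of si_GRB2 (adjusted p = 0.0506). XPO5, the exporter, had 65.5, 63.4 and 62.2 CPM in si_NC and 60.0, 63.6 and 62.1 CPM in si_GRB2, and its interval of -0.12 to 0.04 on the log2 scale included 0 (adjusted p = 0.495).

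**Figure D2:**
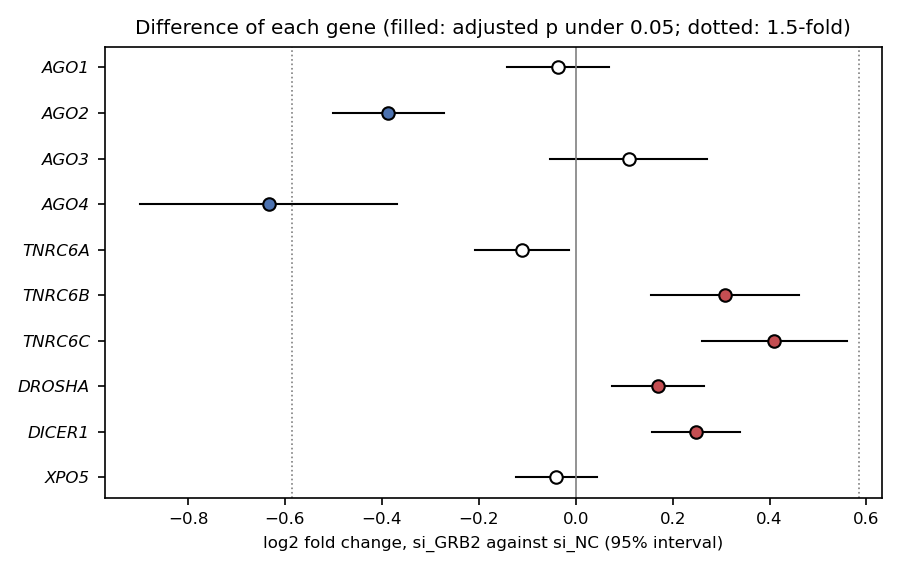
Log2 fold change of si_GRB2 against si_NC with its 95% interval from the edgeR fit, filled where the adjusted p was under 0.05 (red higher, blue lower), with dotted lines at 1.5-fold. AGO4 (-0.63) alone lies past a dotted line, and the 4 open symbols are AGO1, AGO3, TNRC6A and XPO5.

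Some reads near these genes could belong to neighbours on the other strand. The library kit keeps strand, but how the authors counted it is not given in the sources used here. TMC6 overlaps TNRC6C over 1426 bases on the opposite strand and had 881% of its reads, with a log2 fold change of -0.11 (adjusted p = 0.0371), opposite in sign to TNRC6C. POLR1C overlaps XPO5 and had 63.9% of its reads (log2 fold change -0.08, adjusted p = 0.168), and DICER1-AS1 had 2.91% of the reads of DICER1. The other overlapping genes with a count had under 1% of the reads of the gene they overlap.

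Levels were compared between genes only per length, mainly as the deposited FPKM (fragments scaled to gene length and to library size). Which lengths were used is not given in the sources used here, and the order, shares and ratio between genes depend on them. All annotated exons of TNRC6A cover 12968 bases and its principal transcript 8491. For AGO1 they are 14043 and 13712 bases. In si_NC the order was DROSHA (6.78 ± 0.33 FPKM, SD, n = 3), XPO5 (6.03 ± 0.10), DICER1 (2.99 ± 0.14), TNRC6A (2.38 ± 0.18), AGO1 (2.29 ± 0.19), AGO2 (1.58 ± 0.13), TNRC6C (1.26 ± 0.13), AGO4 (0.677 ± 0.040), TNRC6B (0.587 ± 0.031) and AGO3 (0.457 ± 0.006). The neighbours TNRC6A and AGO1 overlapped in range and the others did not. In si_GRB2 the first 3 places were the same, TNRC6C (1.72 ± 0.03 FPKM) stood above AGO2 (1.25 ± 0.10), and AGO4 (0.450 ± 0.030) was last, overlapping AGO3 (0.510 ± 0.044).

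The make-up of both families is given as shares of their summed FPKM, as a description with no test. AGO1 made up 45.3, 45.0 and 47.0% of the summed Argonaute FPKM in si_NC and 51.4, 52.8 and 48.9% in si_GRB2, without overlap. The share of AGO2 was 31.5% ± 0.8 (SD, n = 3) in si_NC and 27.6% ± 0.9 in si_GRB2, that of AGO4 13.6% ± 1.4 and 10.01% ± 0.93, and that of AGO3 9.14% ± 0.50 and 11.3% ± 0.9. Within the GW182 family TNRC6A made up 56.4% ± 2.7 in si_NC and 48.0% ± 0.5 in si_GRB2, and TNRC6C 29.7% ± 2.9 and 36.3% ± 1.6. CPM per kilobase of all annotated exons gave close shares, with AGO2 at 31.7% in si_NC and 27.8% in si_GRB2. On that scale TNRC6C was at 28.8% and 35.2%. The Argonaute sum was 5.01 ± 0.29 FPKM in si_NC and 4.51 ± 0.24 in si_GRB2, while the TNRC6 sum was 4.23 ± 0.21 and 4.74 ± 0.18. These FPKM carry no TMM factors. In TMM-normalized CPM per kilobase the Argonaute sum was 6.20 ± 0.13 in si_NC and 5.41 ± 0.13 in si_GRB2. The TNRC6 sum was 5.19 ± 0.10 and 5.63 ± 0.09 on that scale. In FPKM the ratio of the TNRC6 sum to the Argonaute sum was 0.837, 0.867 and 0.830 in si_NC and 1.08, 1.05 and 1.03 in si_GRB2. Every si_GRB2 library was thus above every si_NC library, and the size of this ratio depends on the lengths used.

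**Figure D3:**
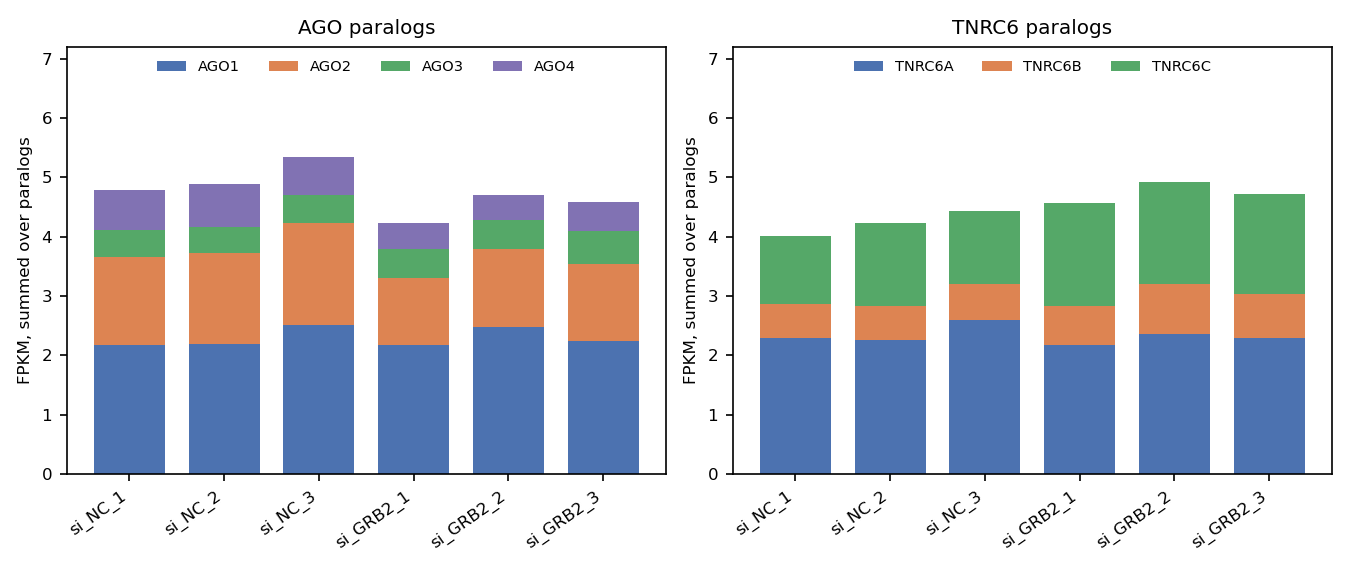
FPKM of the Argonaute paralogs (left) and TNRC6 paralogs (right) stacked for each library, on a common axis from 0. The Argonaute bars reach 4.79 to 5.34 in si_NC and 4.24 to 4.70 in si_GRB2, and the TNRC6 bars 4.01 to 4.43 and 4.57 to 4.92.

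The transcripts of the 10 genes were long. Their median 3′ UTR was 4277.5 bases, against 1295 over tested genes with an annotated 3′ UTR. Their median coding sequence was 3870 bases, against 1386 over tested genes with an annotated coding sequence. AGO3 (16755 bases), TNRC6B (12567), AGO2 (11888) and AGO1 (10925) all lay above the 99th percentile of 3′ UTR length, and DROSHA (938 bases) lay below the median. Among the 4 genes with these long 3′ UTRs, 1 rose, 1 fell and 2 did not pass the test.

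Of the 12696 tested genes with an annotated 3′ UTR, 1031 (8.12%) held a seed match to the GRB2 guide. Of these 30.0% were called lower and 12.7% higher, with a median log2 fold change of -0.06, against 16.8% and 18.4% and a median of 0.01 among the 11665 genes without one. Matched genes also had longer 3′ UTRs, with a median of 3411 against 1169 bases. Among the 3′ UTRs of at least 2697 bases, 22.03% of matched genes were lower and 14.1% higher, against 13.2% and 24.8% of the rest. Of the 378 genes matched to the control guide 12.4% were lower and 28.0% higher in si_GRB2, with a median of 0.06, against 18.1% and 17.6% and a median of 0.00 among the rest. Their 3′ UTRs were longer too, with a median of 2804.5 against 1259.5 bases. Among 3′ UTRs of at least 2697 bases the difference was smaller on the higher side, at 8.96% lower and 28.4% higher against 15.3% and 22.4%. These are counts without a test, and a match is only a run of letters. Of the members, AGO2 with 1 match was lower by 0.39, AGO1 with 2 did not pass the test, and AGO4, with none, fell. Whether seed pairing had a part in any of these values was not tested.

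**Figure D4:**
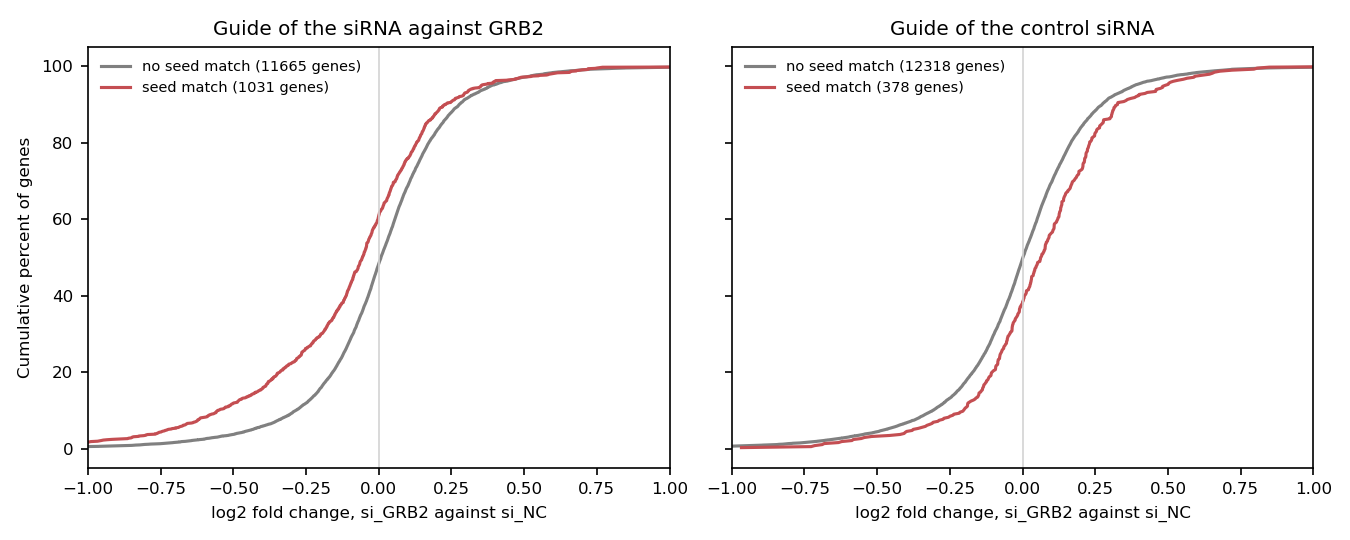
Cumulative percent of tested genes by log2 fold change (si_GRB2 against si_NC, shown from -1 to 1), for genes with (red) and without (grey) a 3′ UTR seed match to the GRB2 guide (left, 1031 and 11665 genes) and to the control guide (right, 378 and 12318 genes). The red curve lies to the left of the grey one over most of the range for the GRB2 guide (medians -0.06 and 0.01) and to the right for the control guide (0.06 and 0.00).

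The partners of these proteins were read from 8 fixed lists. Of 70 tested protein genes in them 27 passed (38.6%), 14 higher and 13 lower, beside 30.6% of all genes, 15.2% higher and 15.5% lower. Their median log2 fold change was 0.00. Among all tested genes within the CPM range of the core genes described first, 36.8% passed, close to the share of the lists. Some list genes lie outside that range, such as HSPA8 with a mean of 1869.8 CPM in si_NC. No share matched to the levels of the list genes was taken. The counts per list below stand against the same shares, come from few genes each and were not tested. With limma on log2(FPKM + 1) 5 passed. The count of genes called higher was unsteady, at 8 without replicate 2 of si_GRB2 and 9 without replicate 3 of si_GRB2. None of the 8 Microprocessor partners passed with edgeR or with DESeq2, and 1 had an unadjusted p under 0.05. DGCR8, the RNA-binding partner of DROSHA, stood at 28.8 ± 1.3 CPM (SD, n = 3) in si_NC and 28.4 ± 2.5 CPM in si_GRB2. Of the 4 dicing, editing and export partners 2 passed, both lower. TARBP2, the partner of DICER1, had 35.3, 35.5 and 38.5 CPM in si_NC and 30.2, 28.5 and 29.4 CPM in si_GRB2, and fell by 0.31 on the log2 scale (SE 0.05, edgeR adjusted p = 0.000153). RAN, the GTPase that XPO5 exports with, fell by 0.15 (SE 0.03, adjusted p = 0.000439).

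Of 13 genes of the chaperones that load Argonaute and the nuclease that clears the passenger strand, 5 passed, 4 higher and 1 lower, all by small amounts. HSP90AA1, the inducible cytosolic HSP90, rose by 0.12 on the log2 scale (edgeR adjusted p = 0.00105) and so did AHSA1, an activator of HSP90 (0.12, adjusted p = 0.00252), while CDC37, a kinase-directed HSP90 cochaperone, fell by 0.13 (adjusted p = 0.00254). Of 11 tested regulators of Argonaute 6 passed, 2 higher and 4 lower. MOV10, a helicase bound to Argonaute, had 31.0, 31.1 and 33.3 CPM in si_NC and 23.0, 24.2 and 21.8 CPM in si_GRB2, without overlap, and fell by 0.47 (SE 0.05, adjusted p = 6.391e-06). CSNK1A1 (0.23, adjusted p = 1.097e-05) and ANKRD52 (0.31, adjusted p = 7.466e-05) both rose. The first encodes the kinase and the second a subunit of the phosphatase of the Argonaute phosphorylation cycle. PPP6C, another subunit of that phosphatase, did not pass (0.05, adjusted p = 0.304).

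Downstream of TNRC6, 4 of 14 genes for CCR4-NOT, PAN and poly(A) binding proteins passed, 1 higher and 3 lower. CNOT6, a catalytic deadenylase subunit, had 72.5, 70.7 and 66.9 CPM in si_NC and 45.1, 45.4 and 46.8 CPM in si_GRB2, and fell by 0.61 (SE 0.04, edgeR adjusted p = 1.686e-08). Its paralog CNOT6L fell by 0.43 (SE 0.06, adjusted p = 7.962e-05), from 38.3 ± 1.0 CPM to 28.5 ± 3.3 CPM (SD, n = 3 each), and the scaffold-bound subunit CNOT11 fell by 0.16 (adjusted p = 0.00547). The other catalytic deadenylase subunits, CNOT7 (0.00, adjusted p = 0.959) and CNOT8 (0.05, adjusted p = 0.506), did not pass. Both fell outside the naming rule and were picked after their values were seen, as were DGCR8 and PPP6C above and the PIWI, LIN28, TRIM71, ZSWIM8, FXR1 and XRN1 genes below.

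Of 13 genes for decapping, decay and translational repression 6 passed, 5 higher and 1 lower. DCP2, the decapping enzyme, had 25.2, 27.0 and 27.3 CPM in si_NC and 42.5, 43.3 and 43.7 CPM in si_GRB2. All si_GRB2 libraries were far above all si_NC libraries, and DCP2 rose by 0.70 on the log2 scale (SE 0.05, edgeR adjusted p = 1.161e-08). Its cofactor DCP1A fell by 0.29 (SE 0.07, adjusted p = 0.00397), and GIGYF2, a repressor of cap-dependent translation, rose by 0.14 (adjusted p = 0.0104), a call lost without replicate 2 of si_GRB2 (adjusted p = 0.0612).

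The largest change among the listed protein genes was in small RNA tailing and turnover, where 4 of 6 tested genes passed, 2 in each direction. PARN, a poly(A)-specific ribonuclease that trims small RNA 3′ ends, had 47.9, 49.1 and 46.6 CPM in si_NC and 23.1, 24.0 and 21.1 CPM in si_GRB2, and fell by 1.07 on the log2 scale (SE 0.05, edgeR adjusted p = 2.914e-10). Its 3′ UTR holds 1 match to the seed of the GRB2 guide, at chr16:14435845-14435851 on the minus strand, 866 bases into a 3′ UTR of 1016 bases. CNOT6 and DCP2 held no match to either guide, and TENT2, a poly(A) polymerase that held 1 match to the GRB2 guide, had a log2 fold change of 0.16 (adjusted p = 0.0202) that DESeq2 did not call (adjusted p = 0.0821) and that was lost without replicate 2 or 3 of either group (adjusted p = 0.0579 to 0.0971). The other listed genes with a match to the GRB2 guide were ZSWIM8 (-0.09, adjusted p = 0.168) and FXR1 (0.09, adjusted p = 0.0818), neither called, and XRN1 (0.08, adjusted p = 0.363) held 1 match to the control guide. The stretch of PARN is shown with the match in capitals.
PARN, GRB2 guide: tctccgttgaaACAGATCacagcaacgac

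DIS3L2, the exonuclease that degrades uridylated precursors, fell by 0.25 (SE 0.05, adjusted p = 0.00225). The germline-type proteins were close to silent, with 1 read of PIWIL1 and 8 of PIWIL2 in all 6 libraries, and only PIWIL4 was tested (0.41, adjusted p = 0.344). LIN28A (13 reads) and LIN28B (38 reads), which block let-7 processing, and TRIM71 (38 reads) were too low to test.

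**Figure D5:**
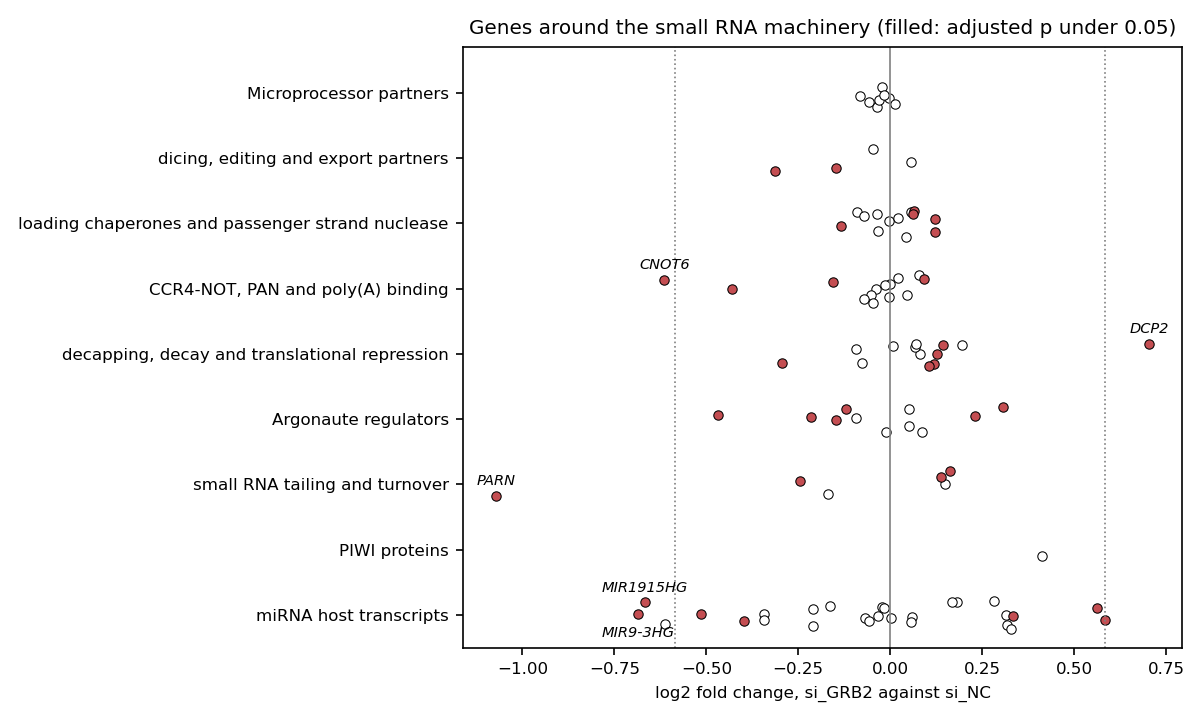
Log2 fold change (si_GRB2 against si_NC) of each tested gene in the fixed lists, 1 row of points per list with a random vertical offset, filled where the adjusted p was under 0.05, with dotted lines at 1.5-fold and names for genes past 1.5-fold with an adjusted p under 0.01. The 8 Microprocessor partners lie between -0.08 and 0.01, and PARN (-1.07) and DCP2 (0.70) lie farthest out.

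Poly(A) libraries do not measure mature miRNAs, but they hold the host transcripts that some hairpins are cut from. Of 48 genes named as miRNA hosts 27 were tested and 7 passed (25.9%), 3 higher and 4 lower, beside 30.6% of all genes tested. MIR9-3HG had 7.84, 9.30 and 8.38 CPM in si_NC and 5.05, 5.35 and 5.45 CPM in si_GRB2, and fell by 0.68 on the log2 scale (SE 0.11, edgeR adjusted p = 0.00012). MIR1915HG had 31.2, 34.8 and 37.1 CPM in si_NC and 22.9, 21.9 and 20.1 CPM in si_GRB2, and fell by 0.67 (SE 0.07, adjusted p = 1.142e-06). MIR99AHG had 4.99, 5.18 and 5.28 CPM in si_NC and 7.67, 6.77 and 8.73 CPM in si_GRB2, and rose by 0.58 (SE 0.12, adjusted p = 0.00108). None of the 3 overlapped between groups. With limma on log2(FPKM + 1) and log2(FPKM + 0.1) the calls of MIR99AHG (0.06 and 0.32, adjusted p = 0.169 and 0.311) and MIR9-3HG (-0.23 and -0.55, adjusted p = 0.073 in both) were lost. Of the mature miRNAs annotated within these 3 hosts, 5 are shown from RefSeq on GRCh38 with the seed (bases 2 to 8) in capitals, to set out the seeds that the changed hosts carry. No seed is shared among them or with the GRB2 guide.
miR-9-5p, in MIR9-3HG: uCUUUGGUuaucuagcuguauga
miR-1915-3p, in MIR1915HG: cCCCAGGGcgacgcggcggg
miR-99a-5p, in MIR99AHG: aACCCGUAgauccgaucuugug
let-7c-5p, in MIR99AHG: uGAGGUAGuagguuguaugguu
miR-125b-5p, in MIR99AHG: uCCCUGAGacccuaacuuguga

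Among all tested genes outside the 10, the closest to AGO2 in log2 CPM over the 6 libraries were CYTOR (Pearson r = 0.997), a long non-coding RNA, and XXbac-BPG118E17.11 (r = 0.997). The closest to DICER1 were TMED7 (r = 0.999), a cargo receptor of the secretory pathway, and ZNRF2 (r = 0.997), a ubiquitin ligase. These correlations span both groups, so a difference between the groups in the same direction raises r. Of all genes, 3.74% had r above 0.95 with AGO2 and 3.57% with DICER1.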

How the data were processed

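Poly(A) RNA of 6 SK-BR-3 libraries, 3 si_NC and 3 si_GRB2, was sequenced, and groups were taken from the sample descriptions. The authors deposited gene read counts and FPKM values, made from reads aligned to GRCh38 with HISAT2 per the labels. The counting tool, its version and its strand setting are not given in the sources used here. Counts were tested with edgeR 4.0.16 in R 4.3.3 (TMM factors, filterByExpr, glmQLFit and glmQLFTest) over all 15801 genes kept, with Benjamini-Hochberg adjustment. A gene was called at an adjusted p under 0.05. CPM values are TMM-normalized, and the SE was taken from the log2 fold change and F statistic. The deposited FPKM values were used for levels between genes. Family shares and sums were also taken from CPM per kilobase of all annotated exons. On simulated counts with 15593 genes, 50 genes were changed at each fold, none of them low in reads. The fit recovered 76% of genes changed 1.25-fold and 92% of those changed 1.5-fold. Far fewer genes were changed there than were called here, so these shares are not the power of this comparison.

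The genes and lists were chosen with earlier results of these data known. Named genes were GRB2, the 10 genes, in each list the 3 called genes of largest absolute log2 fold change and any past 1.5-fold with an adjusted p under 0.01, the 2 genes closest to AGO2 and to DICER1, and genes overlapping one of the 10. A few others, named as such in the text, were chosen after their values were seen. Positions, transcripts and 3′ UTRs came from GENCODE 44 on GRCh38, which held 99.7% of the 30327 identifiers counted, and miRNAs from RefSeq. Seed matches were searched on the sense strand as ACAGATC and TGTCACG, overlaps allowed. Alternatives were DESeq2 1.42.0, its size factors, other count filters, a stricter adjusted p, the replicate number as a block, limma 3.58.1 on log2 FPKM and leaving out each library.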

Additional observations from a re-analysis of the deposited data

How the results depend on the processing

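With all 6 libraries, under DESeq2, its size factors in edgeR, other count filters, an adjusted p under 0.01 and the replicate block, 6 genes passed, 4 higher and 2 lower. Leaving out 1 library gave 5 to 7 calls, 3 to 4 higher and 2 to 3 lower, as DROSHA lost its call without replicate 2 or 3 of si_GRB2 and TNRC6A gained one without replicate 2 of si_NC. With limma on FPKM 0 of 10 genes passed at log2(FPKM + 1), 1 of 10 at log2(FPKM + 0.1), which was higher, and 3 of the 7 with a mean FPKM of at least 1, of which 2 were higher and 1 lower. The called genes kept their direction in all 88 alternative results and lost the call in 14. The stricter adjusted p is among these alternatives and reuses the main fit, so direction could not change there. AGO1 turned to 0.00336, 0.00485 and 0.00336 and XPO5 to 0.00308, 0.00336 and 0.00308 on the log2 scale in the 3 FPKM fits. No TMM factors were applied to FPKM. In the counts these factors were 0.9758 to 0.9884 in si_NC and 1.0153 to 1.0199 in si_GRB2, and their part in these turns was not tested. For the 70 listed protein genes the same 3 fits gave 5, 5 and 12 calls in place of 27, with 2, 2 and 7 higher and 3, 3 and 5 lower. The 20 named list genes, miRNA hosts included, kept their direction in all 298 alternative results and lost the call in 43. The cause was not tested. Leaving out 1 library gave 20 to 26 list calls, 8 to 14 higher and 12 to 14 lower, and 8 genes were higher at an adjusted p under 0.01. GRB2 stayed between -2.18 and -1.91 in its 15 alternative results. Replicate numbers did not pair the libraries (correlations of deviations 0.23, -0.09 and 0.08). With the replicate block 6 members and 22 list genes passed (10 higher, 12 lower), and GRB2 was at -2.15. The 95% intervals show what 3 libraries a group could resolve, from 824 reads for AGO4 to 11120 for DROSHA.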
